A study of Mus musculus with 18 samples.

Results

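Cultured kidney fibroblasts (KFc) were compared with cultured tail fibroblasts (TFc) by RNA sequencing, 3 libraries against 3, which are 6 of the 18 samples of the study. The members were the libraries labelled as cultured kidney or cultured tail fibroblasts, and every gene of the count table was considered. All cells were labelled as from 10-week-old male mice carrying the Rosa mT/mG reporter on a C57BL/6 background, a line in which cells glow red until Cre recombinase switches them to green. The fibroblasts were grown for 10 days after isolation, plated again and kept 3 more days in culture. The remaining samples were heart fibroblasts cultured the same way (HFc, 3 libraries) and kidney, heart and tail fibroblasts recovered 3 days after transplantation under the kidney capsule of C57BL/6J hosts (KFs, HFs and TFs, 3 libraries each). KFc and TFc therefore shared genotype, sex, age and time in culture, and differed in the organ of origin. The labels number the replicates but do not say whether they came from separate animals or separate dishes. The study describes 3 biological replicates per condition without saying which of these it means. The p-values below therefore measure the spread between these libraries, which may be technical.

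Fibroblasts are the mesenchymal cells that build and remodel connective tissue. Cultured fibroblasts keep a memory of where in the body they arose, carried largely by Hox genes, whose order along each of their 4 chromosomal clusters (a to d) mirrors their order of use from head to tail, and by other transcription factors laid down in the embryo. The kidney interstitium descends from intermediate mesoderm, in which Pax2, Pax8, Wt1 and their partners direct formation of the organ, and its fibroblasts and pericytes lie against tubule and capillary basement membranes. The tail holds skin, tendon, cartilage and vertebrae, and its dermal and tendon fibroblasts make a matrix of fibrillar collagen, elastic fibres and small proteoglycans. In culture on plastic, fibroblasts of many organs take on features of myofibroblasts, the contractile cells of wounds that carry smooth muscle actin.

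The libraries held 21616781 to 32245168 counts. Levels are given throughout as CPM, which divides counts by library total, normalised by the trimmed mean of M values (TMM-CPM), and 3 counts in a library were worth 0.0887 to 0.132 TMM-CPM. Pairs of libraries within a group correlated at 0.993 to 0.995 over log2 levels of the genes tested, and KFc with TFc at 0.93 to 0.931. Replicates of a group differed by more than sampling noise (chi-square over its degrees of freedom 5.65 to 7.65 per pair), so none was counted as the same library sequenced again. This check cannot show whether they came from separate animals or dishes, since separate libraries of one culture may also differ by more than sampling noise. A gene was called when the edgeR quasi-likelihood test gave a Benjamini-Hochberg adjusted p below 0.05 and a log2 fold change beyond 1 in either direction.

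Of 15342 genes tested, 2938 were called (19.2%), 1603 higher in KFc (10.4%) and 1335 lower in KFc, that is higher in TFc (8.70%). By the adjusted p alone, 56.6% of genes differed, 4430 higher (28.9%) and 4260 lower (27.8%), and the spread within groups was small (common biological coefficient of variation 0.0782). The KFc and TFc libraries did not overlap for 62.5% of genes tested, called or not. The median log2 fold change over all genes tested was -0.03. The lower group had no count in any library for 68 genes called higher in KFc and 32 called lower. For such a gene the difference is given as a lower bound, computed against 3 counts per library. Where the lower group averaged at most 3 counts per library, the ratio of pooled levels is given with an interval that covers counting error only. Medians over a list are of fitted log2 fold changes, and a second value is given where taking such genes at their ratio or bound moved the median.

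**Figure D1:**
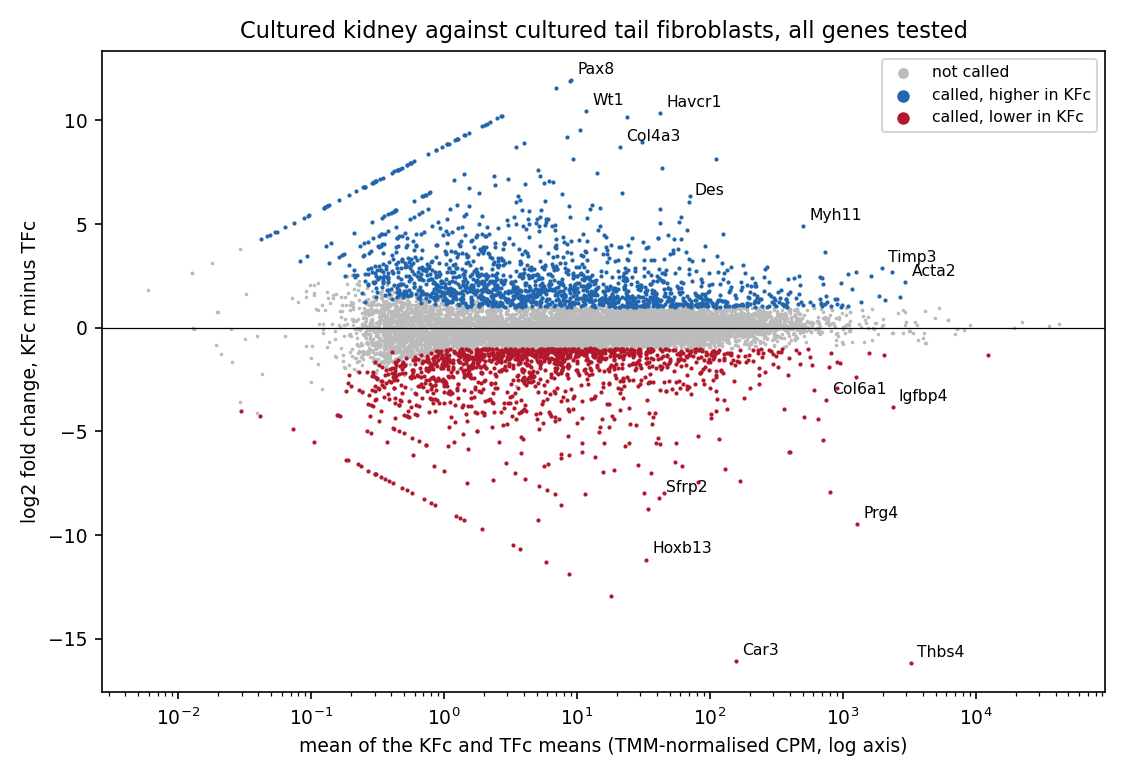
Log2 fold change of KFc over TFc for each of the 15342 genes tested (vertical axis) against the mean of the KFc and TFc means in TMM-CPM (horizontal log axis), with called genes in blue (1603 higher in KFc) or red (1335 lower). Thbs4, Prg4 and Igfbp4 lie far below the line at high levels, Acta2, Timp3 and Myh11 above it, and the straight diagonal edges are genes without counts in one group, whose fitted values are no bounds.

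Both groups carried the defining fibroblast transcripts. Col1a1, the main chain of collagen I, was at 6417, 6463 and 6015 TMM-CPM in KFc and 7681, 7619 and 7770 in TFc. Pdgfra, the platelet-derived growth factor receptor of interstitial mesenchyme, stood at 108, 109 and 113 in KFc against 124, 130.0 and 126 in TFc, and neither gene was called. Thy1, which encodes the CD90 surface protein used to sort fibroblasts, was lower in KFc, at 67.8, 66.2 and 72.3 against 241, 232 and 247 (log2 fold change -1.80 ± 0.044 (SE), adjusted p = 6.78e-18). Dcn, the small proteoglycan decorin, was lower as well, at 14.3, 12.6 and 14.4 against 37.6, 47.9 and 42.6 (log2 fold change -1.63 ± 0.10 (SE), adjusted p = 4.14e-11). In the list of general fibroblast genes 4 of 27 were called higher in KFc and 11 lower (median log2 fold change -0.32).

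Transcripts of other cell types were checked next, because both cultures could hold some. In the macrophage and leukocyte list 19 of 20 genes were called higher in KFc and 0 lower (median 1.86), and its summed level was 650.2 to 704 TMM-CPM in KFc against 229 to 263 in TFc. Ptprc, the CD45 antigen of all leukocytes, was at 15.1, 16 and 15.4 in KFc against 3.81, 5.33 and 5.22 in TFc. Csf1r, the receptor that macrophages need to live, was at 78.3, 82.5 and 73.8 against 24.1, 23.6 and 24.9. These transcripts were present in both groups and higher in each KFc library than in any TFc library, and their part in the results below was not tested. Among endothelial markers, Pecam1 was at 28.4, 25.9 and 25.6 in KFc against 26.7, 21.3 and 20.7 in TFc and was not called (adjusted p = 0.0557), and Cdh5 had 6 to 10 counts per KFc library and 5 to 22 per TFc library. The muscle genes Myod1, Myf5 and Pax7, the Schwann cell gene Sox10 and the basal keratin Krt14 had no count in any of the 6 libraries. Slc34a1, the phosphate transporter of proximal tubules, had none in KFc. The skeletal muscle list gave 6 higher and 1 lower of 10, the higher ones being Acta1, Myh1, Myh2, Neb, Ttn and Des, which encode muscle filament proteins. The calls of Myh2 and Ttn were lost without single libraries, that of Myh2 without KFc replicate 1, KFc replicate 2, TFc replicate 1 or TFc replicate 3 (adjusted p from 0.0764 to 0.117) and that of Ttn without KFc replicate 3, TFc replicate 1 or TFc replicate 2 (adjusted p from 0.0728 to 0.176), and in the fit of all 18 libraries. The keratinocyte list gave 4 and 0 of 7 at a summed 36.4 to 43.1 TMM-CPM in KFc against 6.27 to 7.18 in TFc. The endothelial list gave 4 and 2 of 10, the Schwann and neural crest list 2 and 2 of 11, and the adipogenic list 5 and 5 of 18. In bulk RNA, fewer cells of a type and less RNA per cell cannot be told apart.

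**Figure D2:**
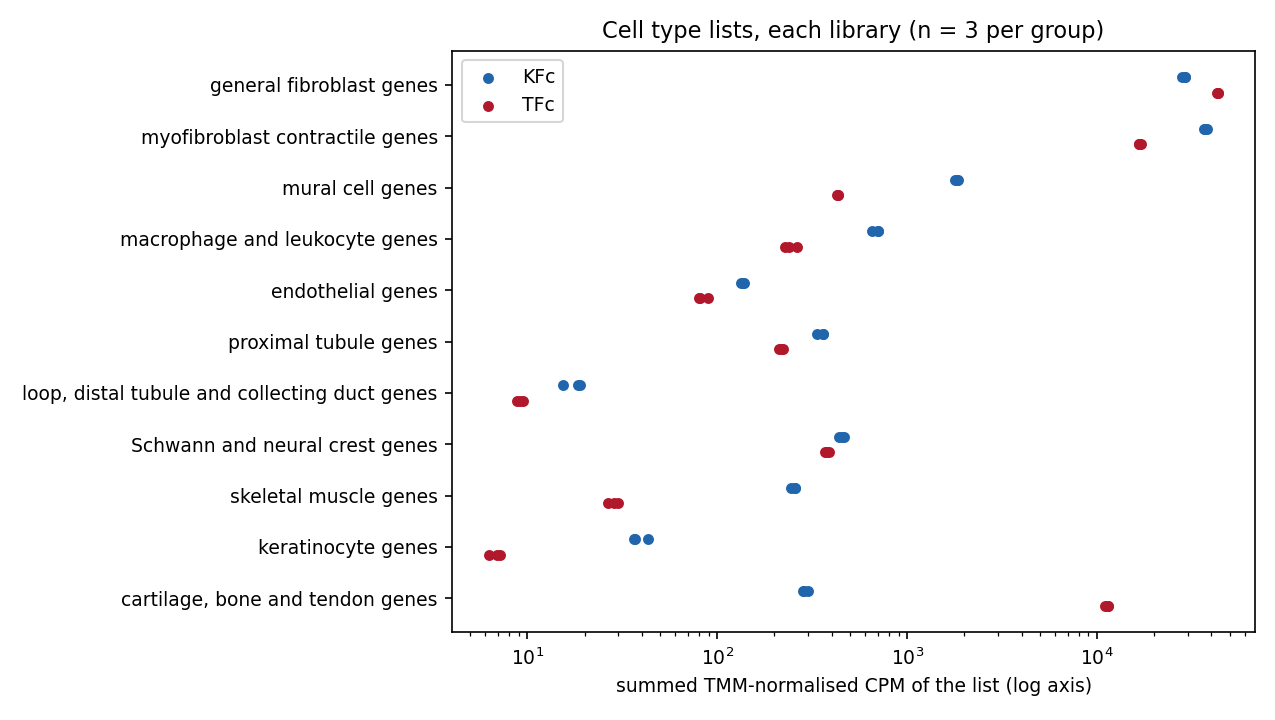
Summed TMM-CPM of 11 cell type lists (rows) in each KFc library (blue) and TFc library (red) on a log axis, 3 libraries per group. The contractile list ran from 36620 to 37890 in KFc against 16580 to 16940 in TFc, the macrophage and leukocyte list from 650.2 to 704 against 229 to 263, and the cartilage, bone and tendon list from 284 to 300.1 against 10960 to 11440.

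The transcription factors that build the kidney in the embryo were largely higher in KFc. Of 32 genes in that list 25 were tested, 13 were called higher in KFc, 4 lower and 8 were not called (median log2 fold change 1.26, against -0.03 over all genes). Pax8, a paired-box factor of the nephric lineage, was at 17, 19.1 and 18.4 TMM-CPM in KFc and had no count in TFc, so it was at least 161-fold higher (adjusted p = 6.13e-14). Wt1, the Wilms tumour zinc finger protein of nephron progenitors and podocytes, was at 21.7, 24.9 and 23.6 in KFc and had 1 count over the TFc libraries, a ratio of 1924 (95% counting interval 345 to 75990). Pax2, the partner of Pax8, was at 13.7, 10.6 and 12.3 in KFc against 0.0591, 0.118 and 0.0877 in TFc. Every KFc library lay above every TFc library for these 3 genes, where 62.5% of all genes tested did not overlap in one direction or the other.

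Stromal factors of the developing kidney moved the same way. Tcf21, a helix-loop-helix factor of kidney and heart mesenchyme, was at 5.82, 4.93 and 5.66 in KFc and without counts in TFc (at least 48.6-fold higher, adjusted p = 6.78e-13). Sall1, a zinc finger protein of the metanephric mesenchyme, was at 7.3, 7.52 and 7.76 in KFc against 0.975, 1.18 and 0.614 in TFc. Foxd1, the marker of renal stromal progenitors, was low in both groups, at 1.1, 1.49 and 2.81 against 0.739, 0.275 and 0.132, and still higher in KFc (log2 fold change 2.16 ± 0.60 (SE), adjusted p = 0.00449), though not by a test against a log2 fold change of 1 (adjusted p = 0.0752). Foxc2, a forkhead factor of intermediate and paraxial mesoderm, reached 17.2, 19.3 and 17.8 against 3.81, 4.35 and 2.46. The list did not move as a block. Six2, which keeps nephron progenitors undifferentiated while they renew in the embryo and is also used in limb and skull mesenchyme, was at 0.0756, 0 and 0.0339 in KFc against 14.4, 15.6 and 15.1 in TFc, and Eya1, its phosphatase partner, at 0.529, 0.213 and 0.203 against 5.2, 5.88 and 8.9. Irx3, an Iroquois homeobox gene, was lower as well, at 3.93, 3.55 and 4.24 against 17.4, 15.3 and 14.8, and Osr1, an early marker of intermediate mesoderm, differed too little to be called (12.6, 9.86 and 9.76 against 15.3, 17.5 and 13.7).

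Hox genes divided by position along their clusters. Of 33 Hox genes tested, 20 were called higher in KFc and 6 lower (median 1.54). In paralog groups 1 to 10, 20 of 27 genes tested were called higher in KFc and 0 lower. In groups 11 to 13, 6 of 6 tested were called lower, that is higher in TFc. Hoxd11 was too low to be tested and leaned the other way, with 5, 7 and 16 counts in KFc against 0, 1 and 0 in TFc. Summed over the genes tested, groups 6 to 8 came to 228 TMM-CPM in KFc against 43.4 in TFc, and groups 12 to 13 to 12.7 against 139. Among the trunk genes Hoxc8 was at 78, 77.5 and 75.7 in KFc against 4.23, 3.57 and 3.69 in TFc (log2 fold change 4.32 ± 0.092 (SE), adjusted p = 1.94e-17). Hoxa5 and Hoxc6 rose as well, Hoxa5 at 15.9, 15.4 and 15.9 against 0.739, 0.627 and 1.62 and Hoxc6 at 58.5, 54.7 and 54.6 against 7.98, 7.37 and 7.41.

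The most posterior genes belonged to TFc. Hoxb13, a factor of the tail bud and later of the prostate and hindgut, was at 67.8, 65 and 65 in TFc and had 2 counts over the KFc libraries, so TFc exceeded KFc by a ratio of 2784 (95% counting interval 771 to 22990). Hoxa13, which patterns digits and the genital tubercle, was at 10.3, 12 and 12.6 in TFc and without counts in KFc (at least 108-fold higher in TFc, adjusted p = 1.79e-12). Hoxc12 was at 0.416, 0.638 and 0.305 in KFc against 23.2, 20.8 and 19.5 in TFc. Hoxc13, a gene of nails, hair and tail, was expressed in both groups and differed less, at 10.8, 12.4 and 13.3 against 42.4, 36.8 and 41.7 (log2 fold change -1.72 ± 0.10 (SE), adjusted p = 1.48e-11). Per kilobase of exon, Hoxb13 was the most abundant Hox gene of TFc, at 29.9 TMM-CPM per kilobase, and Hoxc10 that of KFc, at 27.4.

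The d cluster was low in both groups. Hoxd10 was at 1.17, 1.7 and 1.22 in KFc, with its TFc counts near 0 (0, 0.0392 and 0.132), Hoxd8 at 1.85, 2.2 and 1.93 against 0, 0.235 and 0.132, and Hoxd3 at 1.17, 1.14 and 0.949 against 0, 0.0784 and 0. All were called higher in KFc on few counts, Hoxd10 with a ratio of 28.1 (95% counting interval 11 to 103). In the b cluster Hoxb2, Hoxb7 and Hoxb8 were called higher in KFc, with log2 fold changes of 1.31, 1.40 and 1.54, whereas Hoxb3, Hoxb4, Hoxb5, Hoxb6 and Hoxb9 were not called, with log2 fold changes from -0.28 (Hoxb9) to 0.78 (Hoxb4). Hox genes share sequence with their paralogs in other clusters, and some overlap neighbouring transcripts, so some reads may be assigned to the wrong gene. The extent of this was not tested.

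**Figure D3:**
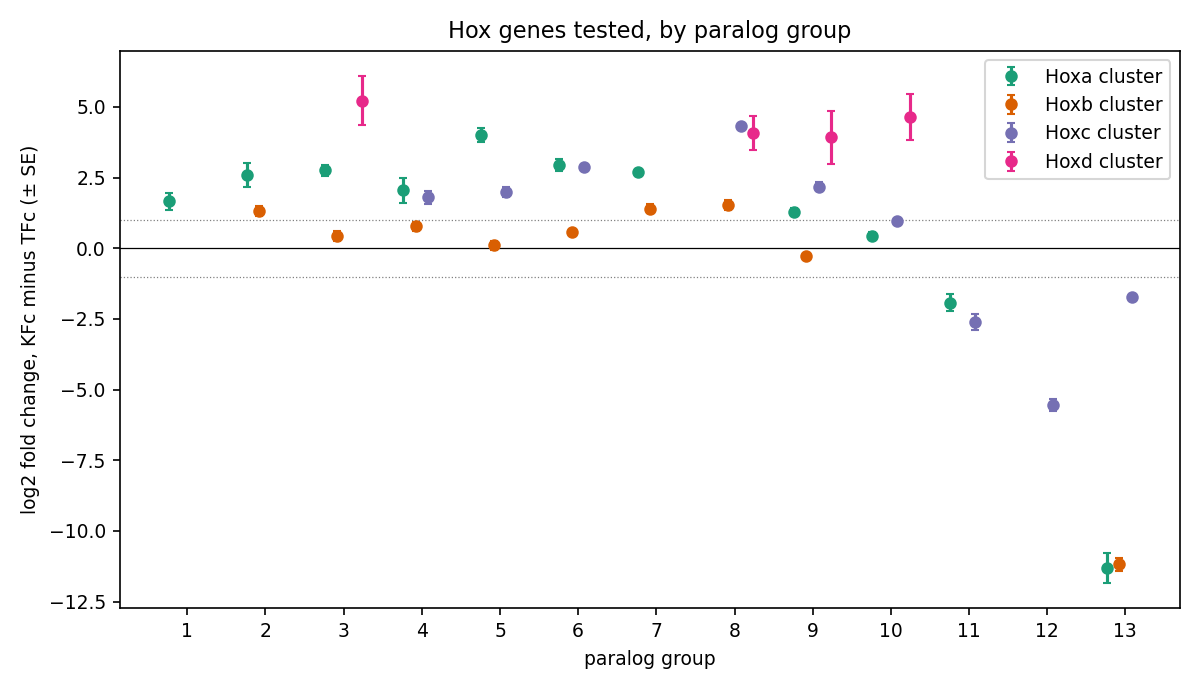
Log2 fold change of KFc over TFc with its standard error (vertical axis) for the 33 Hox genes tested, by paralog group (horizontal axis) and cluster (colour), dotted lines at 1 and -1. Genes of groups 1 to 10 lie near or above 0, and the 6 genes of groups 11 to 13 lie below -1, with Hoxa13 and Hoxb13 lowest.

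Positional transcription factors of limb, skin and trunk were mostly higher in TFc. In that list 7 of 45 genes were called higher in KFc and 24 lower (median -1.42, or -1.27 with ratios and bounds). Tbx4, the T-box gene of the hindlimb, was at 7.09, 7.25 and 8.03 TMM-CPM in TFc and without counts in KFc (at least 69.6-fold higher in TFc, adjusted p = 2.23e-11). Zic1, a zinc finger factor of dorsal mesoderm, was at 21.8, 22.4 and 24.1 in TFc with 7 counts over KFc, a ratio of 272 (95% counting interval 132 to 676). Meox2, of somite derivatives, was at 0.832, 0.461 and 1.29 in KFc against 27.5, 28.2 and 29.4 in TFc. Mkx, which directs tendon differentiation, was at 5.86, 5.92 and 4.84 against 62.6, 60.8 and 63 (log2 fold change -3.49 ± 0.10 (SE), adjusted p = 8.51e-17). Prrx1, a general marker of limb and trunk mesenchyme, did not separate them in the same way, at 271, 286 and 282 against 346, 353 and 362 (log2 fold change -0.34, not called). Against the list, Gata6, a factor of visceral mesoderm, was higher in KFc, at 14.6, 15.5 and 16.7 against 1.27, 1.14 and 1.32 (log2 fold change 3.65 ± 0.14 (SE), adjusted p = 7.66e-15).

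Cartilage, bone and tendon transcripts were mostly higher in TFc, and their summed level was 10960 to 11440 TMM-CPM there against 284 to 300.1 in KFc. Of 21 tested, 15 were called lower in KFc and 1 higher (median -1.78, or -1.76 with ratios and bounds). Thbs4, thrombospondin 4, which organises collagen fibrils of tendon, was at 6399, 6636 and 6554 in TFc and had 7 counts over the 3 KFc libraries, a ratio of 78330 (95% counting interval 38020 to 194800). Prg4, the lubricin of joints and tendon sheaths, was at 3.86, 3.23 and 3.66 in KFc against 2495, 2512 and 2691 in TFc (log2 fold change -9.48 ± 0.056 (SE), adjusted p = 2.35e-27). Comp, cartilage oligomeric matrix protein, was at 1.66, 1.74 and 2.54 against 325, 341 and 346, and Fmod, the collagen-binding fibromodulin, at 31.9, 32.8 and 32.6 against 1323, 1418 and 1410. The KFc and TFc libraries did not overlap for any of these genes, nor for 62.5% of all genes tested. The transcription factor Scx, of tendon progenitors, was at 3.97, 2.52 and 2.47 against 9.87, 8.98 and 8.99 (log2 fold change -1.64 ± 0.21 (SE), adjusted p = 1.35e-06), Runx2, of bone, at 32, 31 and 32.3 against 87, 94.2 and 88.1. Col2a1, the collagen of cartilage, did not follow them, at 24.6, 21.6 and 19.8 in KFc against 12.8, 18.7 and 18.1 in TFc (not called), and Acan, the large proteoglycan of cartilage, had no counts in KFc and 0.561, 0.353 and 0.175 in TFc.

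The wider extracellular matrix divided by kind. Among proteoglycans, elastic fibre proteins and matricellular proteins, 9 of 59 were called higher in KFc and 29 lower (median -0.65). Ltbp2, a latent TGF-beta binding protein of elastic fibres, was at 1195, 1194 and 1146 against 2952, 2896 and 2984. Fbln1, fibulin 1, was at 16, 15.2 and 18.4 against 246, 252 and 257 (log2 fold change -3.93 ± 0.091 (SE), adjusted p = 2.64e-18), while Fbln2, its relative in vessel walls and basement membranes, was higher in KFc, at 4135, 3971 and 3834 against 1510, 1410 and 1426 (log2 fold change 1.46 ± 0.031 (SE), adjusted p = 5.06e-19). Lum, lumican, was at 0.227, 0.0355 and 0.102 against 10.2, 14.2 and 11.4. Postn, periostin, a protein of valves, periosteum and scars, went against the list, at 168, 179 and 172 in KFc against 11.2, 11.7 and 11.1 in TFc (log2 fold change 3.93 ± 0.048 (SE), adjusted p = 1.79e-22). Thbs1 and Tnc, which are abundant in cultured fibroblasts, were not called, with log2 fold changes of 0.01 and 0.05. Fn1, fibronectin, had the highest TMM-CPM, a scale not divided by length, of the genes called lower in KFc, at 7314, 7354 and 6998 against 17450, 17660 and 17920 (log2 fold change -1.29 ± 0.027 (SE), adjusted p = 4.09e-19).

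Fibrillar and associated collagens went both ways, with 8 of 31 called higher in KFc and 10 lower (median -0.29). Col6a1, a chain of the beaded collagen VI around cells, was at 129, 117 and 117 TMM-CPM in KFc against 1361, 1374 and 1368 in TFc, and Col6a2 at 61.9, 53.6 and 59.6 against 1262, 1243 and 1246. Their log2 fold changes were -3.50 and -4.42, against -1.05 for the partner chain Col6a3. Col3a1, the collagen of distensible organs, was higher in KFc, at 2982, 3027 and 2935 against 1182, 1157 and 1194 (log2 fold change 1.34 ± 0.039 (SE), adjusted p = 1.02e-16). Col1a1, Col1a2, Col5a1 and Col5a2, the chains of collagens I and V, were not called, with log2 fold changes from -0.50 (Col5a2) to -0.14 (Col1a2). Sparc, a collagen-binding matricellular protein, was at 3334, 3333 and 3209 against 2665, 2681 and 2724 (log2 fold change 0.29, not called).

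Basement membrane genes were higher in KFc. In that list 22 of 33 were called higher and 3 lower (median 1.18). Collagen IV, the network-forming collagen of basement membranes, is assembled from 6 chains whose genes lie in head-to-head pairs, and the 6 chains were called higher in KFc. Col4a1 was at 4257, 4117 and 3881 in KFc against 644, 599 and 647 in TFc (log2 fold change 2.70 ± 0.036 (SE), adjusted p = 4.97e-22), and Col4a2, its partner, at 2873, 2752 and 2637 against 505, 470.5 and 490.3 (log2 fold change 2.49 ± 0.037 (SE), adjusted p = 2.54e-21). Col4a5 was at 356, 349 and 357 against 82.9, 79.7 and 78.9, and Col4a6 at 19.9, 19.2 and 20.1 against 2.01, 1.53 and 1.62. Col4a3 and Col4a4, which with Col4a5 form the network of the glomerular filter, were low in TFc. Col4a3 was at 41.9, 37.5 and 47.7 against 0.207, 0.0392 and 0, a ratio of 436 (95% counting interval 221 to 1009), and Col4a4 at 24.8, 25.5 and 25.9 against 0.591, 0.196 and 0.395 (log2 fold change 5.93 ± 0.21 (SE), adjusted p = 2.58e-15).

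The shared start region of Col4a3 and Col4a4 is shown because both genes rose together in KFc from opposite strands. Their annotated start sites are 72 bases apart (GENCODE M21). The stretch between them, chr1:82586850-82586920 of GRCm38.p6, is printed 5′ to 3′ on the strand of Col4a4, with sequence from RefSeq.
Col4a4 start region: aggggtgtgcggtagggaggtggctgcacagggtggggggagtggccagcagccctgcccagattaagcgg
The stretch had 69% G or C and held no CArG box, the motif described for contractile genes below. The starts of Col4a1 and Col4a2 are 21 bases apart, and those of Col4a5 and Col4a6 1309 bases apart.

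Laminins and their partners moved with collagen IV. Lama5, the laminin chain of mature kidney basement membranes, was at 200.5, 206 and 220.2 in KFc against 20.7, 17.7 and 17.6 in TFc (log2 fold change 3.47 ± 0.071 (SE), adjusted p = 3.22e-19). Lama1, of embryonic and tubular basement membranes, was at 10.6, 11.8 and 11.5 against 0.325, 0.392 and 0.132. Npnt, nephronectin, which binds integrin alpha 8 in kidney development, was at 137, 138 and 135 against 20.9, 20.3 and 20.8, and Itga8, the chain of that receptor, at 19.6, 19.1 and 18.6 against 2.96, 3.53 and 3.38 (log2 fold change 2.54 ± 0.15 (SE), adjusted p = 8.69e-12). The exceptions were Smoc2, a calcium-binding matrix protein, at 11.7, 12.4 and 12.3 against 785, 769.6 and 806 (log2 fold change -6.02 ± 0.054 (SE), adjusted p = 8.49e-25), Egfl6, a skin basement membrane protein, at 0, 0.177 and 0.136 against 10.5, 12.8 and 10.5, and Frem1. Integrins, the receptors that bind this matrix, were called higher for 9 of 21 and lower for 0. Itga3, a laminin receptor chain, was at 151, 123 and 141 against 47.3, 43.8 and 45.1 (log2 fold change 1.61 ± 0.067 (SE), adjusted p = 4.02e-14), and Itga11, a collagen receptor of myofibroblasts, at 445, 478 and 441 against 58.8, 65.6 and 65.9 (log2 fold change 2.85 ± 0.063 (SE), adjusted p = 1.36e-18). Matrix proteases, inhibitors and crosslinking enzymes gave 16 higher and 9 lower of 57. Timp3, the matrix-bound protease inhibitor, was at 3467, 3544 and 3356 in KFc against 473, 479.8 and 466 in TFc (log2 fold change 2.87 ± 0.031 (SE), adjusted p = 3.60e-23), and Tgm2, a transglutaminase that crosslinks matrix, at 116, 112 and 118 against 6.53, 5.45 and 5.44.

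**Figure D4:**
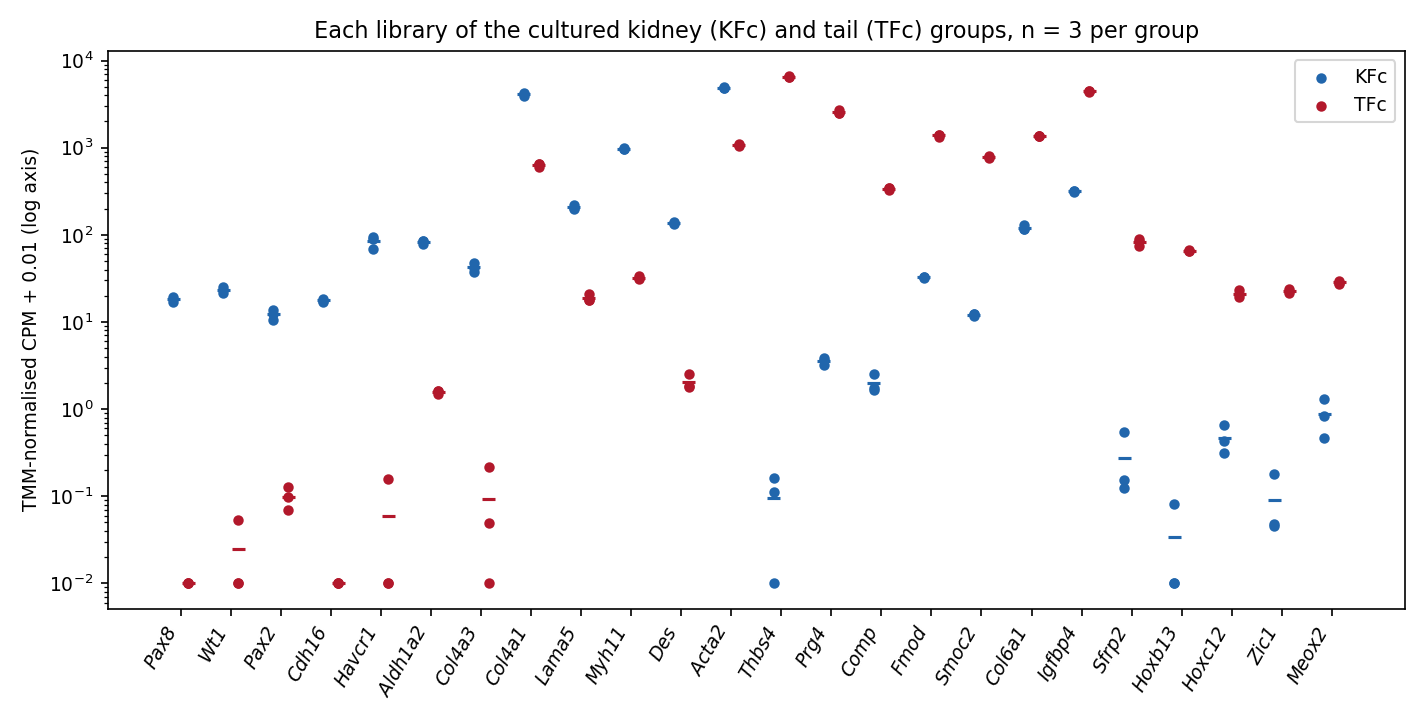
TMM-CPM plus 0.01 (log axis) of 24 genes in each KFc library (blue) and TFc library (red), with the group mean as a bar, 3 libraries per group. The groups do not overlap for any gene shown, and points at the bottom of the axis are libraries without counts. The genes were picked with their values known, several by a rule that required no overlap, and 62.5% of all genes tested did not overlap.

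Contractile genes were higher in KFc nearly throughout. Of 32 tested, 17 were called higher and 1 lower, and by the adjusted p alone 31 were higher (median 1.2). Acta2, smooth muscle actin, was at 4892, 4917 and 4798 TMM-CPM in KFc and 1064, 1037 and 1090 in TFc (log2 fold change 2.19 ± 0.027 (SE), adjusted p = 1.45e-22). Tagln, the actin-binding transgelin, was at 1595, 1545 and 1595 against 346, 356 and 372, and Myl9, a myosin light chain, at 344, 359 and 363 against 83.6, 94.6 and 82. Myh11, the myosin heavy chain of mature smooth muscle, differed more, at 969, 984 and 963 against 33.7, 31.6 and 31.3 (log2 fold change 4.91 ± 0.11 (SE), adjusted p = 2.97e-18). Des, the muscle intermediate filament desmin, which also marks mesangial cells and pericytes, was at 141, 132 and 136 against 1.83, 1.8 and 2.5 (log2 fold change 6.08 ± 0.092 (SE), adjusted p = 3.77e-21). Actg2, the enteric smooth muscle actin, was at 506, 486 and 445 against 62.8, 59.3 and 65.7. Actins have near-identical coding sequences, so reads may be split between Acta2, Actg2 and other actin genes. Csrp2 was the exception, at 14, 18 and 16.9 against 33.2, 35.2 and 36.9 (log2 fold change -1.10 ± 0.10 (SE), adjusted p = 6.57e-09). Srf and Myocd, the transcription factor of these genes and its coactivator in smooth muscle, were not called, with log2 fold changes of 0.49 and 0.85.

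Many contractile genes are controlled through the CArG box, the site of the serum response factor, searched here as CC, then 6 bases each A or T, then GG, a pattern that reads the same on both strands. In the 250 bases before the start, 5 of 27 contractile genes with a promoter in the RefSeq table held it (18.5%). The share was 165 of 11184 over genes tested (1.48%) and 482 of 32851 over promoters in all (1.47%). The contractile genes with a match included Cnn2, Vcl and Srf, which were not called, while Acta2, Cnn1 and Des had none. Of the genes called higher in KFc that had a promoter, 31 of 1167 (2.66%) held it, and of those called lower 13 of 899 (1.45%). The called contractile genes with a match were Myl9 and Ldb3, a protein of the muscle Z-disc, whose windows are printed 5′ to 3′ on the gene's strand, without annotated exons and with the match in capitals. They are chr2:156775214-156775419 for Myl9, where the match begins 161 bases before the start, and chr14:34588683-34588931 for Ldb3, where it begins 35 bases before (GRCm38.p6, RefSeq).
Myl9: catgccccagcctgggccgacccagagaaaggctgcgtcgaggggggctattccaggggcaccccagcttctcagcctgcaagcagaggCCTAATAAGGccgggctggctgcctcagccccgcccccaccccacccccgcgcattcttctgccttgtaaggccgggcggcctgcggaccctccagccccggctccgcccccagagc
Ldb3: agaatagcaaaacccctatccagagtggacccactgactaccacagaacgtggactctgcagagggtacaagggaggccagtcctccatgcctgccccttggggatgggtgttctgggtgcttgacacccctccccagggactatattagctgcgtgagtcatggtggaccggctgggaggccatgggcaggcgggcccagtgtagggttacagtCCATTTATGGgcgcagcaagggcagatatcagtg
Ldb3 itself was at 22.4, 22.6 and 22.9 in KFc against 10.1, 6.08 and 9.17 in TFc (log2 fold change 1.41 ± 0.13 (SE), adjusted p = 1.43e-08). A match is a description of the letters and not a measured binding site.

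Genes of the cells that wrap small vessels overlapped with this group. In the mural cell list 7 of 13 were called higher in KFc and 2 lower (median 1.31), Myh11 and Des among them. Mcam, an adhesion molecule of pericytes and endothelium, was at 116, 119 and 106 in KFc against 2.98, 3.22 and 3.9 in TFc (log2 fold change 5.09 ± 0.093 (SE), adjusted p = 6.42e-20), and Notch3, a receptor of mural cells, at 91.6, 91.1 and 86.8 against 36.4, 35.4 and 36.5 (log2 fold change 1.31 ± 0.054 (SE), adjusted p = 2.57e-14). The defining markers Rgs5 (3.71, 4.75 and 5.49 against 1.68, 2.9 and 2.5) and Cspg4 (33.2, 30.1 and 32.1 against 54.5, 53.9 and 51.8) were not called. In the podocyte and glomerular list 9 of 20 were higher and 3 lower, the higher ones including Wt1, Tcf21, Des and 3 collagen IV chains, while Nphs1, the slit diaphragm protein nephrin, was not called (0.265, 0.355 and 0.542 against 0.798, 0.981 and 0.395). Nes, nestin, was at 244, 228 and 245 in KFc against 9.37, 11.7 and 10.5 in TFc (log2 fold change 4.52 ± 0.066 (SE), adjusted p = 2.54e-21).

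Genes of renal stroma and of retinoid metabolism followed with exceptions: 10 of 27 were called higher in KFc and 5 lower. Aldh1a2, which makes retinoic acid in stromal cells, was at 85.6, 79.1 and 85.8 in KFc against 1.6, 1.49 and 1.62 in TFc (log2 fold change 5.73 ± 0.10 (SE), adjusted p = 4.32e-20). Rarb, a retinoic acid receptor, was at 3.33, 3.69 and 3.46 against 0.443, 0.0784 and 0.175. Crabp1, a cytoplasmic retinoic acid-binding protein of dermal fibroblasts, was lower, at 0.151, 0.0355 and 0.271 against 63.9, 71.3 and 68.1 (log2 fold change -8.73 ± 0.22 (SE), adjusted p = 9.77e-18). Gdnf, the ligand that calls the ureteric bud into the kidney, was lower too, at 1.97, 1.63 and 2.2 against 6.95, 7.49 and 7.02.

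Epithelial transcripts were detected in KFc at low levels. In the list of adhesion, keratin and junction genes 24 of 40 were called higher in KFc and 4 lower (median 2.43). Cdh16, the kidney-specific cadherin of tubules, was at 18.4, 17.1 and 17.4 TMM-CPM in KFc and without counts in TFc (at least 157-fold higher, adjusted p = 5.40e-13). Havcr1, known as kidney injury molecule 1, was at 95.5, 69.6 and 88.7 with 5 counts over TFc, a ratio of 1387 (95% counting interval 594 to 4272). Krt8, a simple epithelial keratin, was at 11, 8.09 and 11.5 in KFc with 4 counts over TFc, its partner Krt18 at 4.24, 4.33 and 4.64 with none, and Krt7, a keratin of ducts, at 6.35, 5.68 and 4.74 against 0.621, 1.33 and 1.67. The groups did not overlap for these 5 genes, nor for 62.5% of all genes tested. Epcam, the pan-epithelial adhesion molecule, was at 0.492, 0.674 and 0.915 in KFc with 1 count over TFc, and Cdh1, E-cadherin, at 2.53, 1.35 and 3.25. The summed level of the list was lower in KFc (864 to 985 against 1590 to 1631 TMM-CPM), but this rested on Spp1. That gene alone made up 1354, 1384 and 1390 of the TFc sums, and 457, 389 and 455 of the KFc sums. The rest of the sum was higher in KFc. Krt19 did not differ enough to be called (7.03, 4.12 and 7.49 against 4.73, 4.98 and 4.74). Spp1, osteopontin, and Clu, clusterin, went the other way. Spp1 was at 457, 389 and 455 against 1354, 1384 and 1390 (log2 fold change -1.67 ± 0.048 (SE), adjusted p = 1.02e-16), and Clu at 11.7, 15.3 and 17.1 against 49.6, 60.8 and 54.6 (log2 fold change -1.90 ± 0.11 (SE), adjusted p = 1.12e-11).

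Genes of mature nephron segments were mostly at the limit of detection. Of 42 proximal tubule genes, 16 were tested, 3 called higher and 2 lower. Lrp2, the endocytic receptor megalin, was at 93.8 to 101 in KFc against 7.86, 7.29 and 9.3 in TFc (log2 fold change 3.60 ± 0.081 (SE), adjusted p = 1.74e-18), whereas Cubn, its partner cubilin, was not called (2.76, 3.62 and 3.29 against 5.64, 6.12 and 6.58). Pkhd1, the fibrocystin of tubule cilia, was at 43.6, 44.3 and 55 in KFc with 3 counts over TFc, a ratio of 1310 (95% counting interval 448 to 6352). Of 35 loop, distal tubule and collecting duct genes, 6 were tested, 2 were called higher in KFc and 1 lower, which was Trpm6, a magnesium channel, at 1.51, 0.674 and 0.373 against 4.25, 4.12 and 3.46 (log2 fold change -2.23 ± 0.34 (SE), adjusted p = 1.18e-05). Umod and Aqp4 had no count in any of the 6 libraries. Which cells carried these transcripts was not tested.

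The study named 98 genes enriched in kidney fibroblasts (eKF) relative to tail fibroblasts, on a separate microarray of sorted, cultured fibroblasts of several organs. The libraries compared here did not enter that choice, which was made on the same contrast of organs. Of the 60 tested, 46 were called higher in KFc and 1 lower (median 3.20, or 2.98 with ratios and bounds). Among its members were Cck, the peptide cholecystokinin, at 222, 216 and 219 against 35, 35.3 and 35.2 (log2 fold change 2.64 ± 0.056 (SE), adjusted p = 5.79e-19), Pmaip1, a p53-induced death gene, at 128, 128 and 126 against 13.4, 12.6 and 12.4, and Rgs16, a regulator of G protein signalling, at 109.5, 108 and 104 against 7.24, 7.33 and 8.29. Lcn2, lipocalin 2, was the member called lower, at 0.0756, 0 and 0.0339 against 1.62, 2.78 and 1.93.

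Wnt pathway genes were split between the groups, with 11 of 48 called higher in KFc and 17 lower. Among ligands, Wnt7b, which patterns the renal medulla, was at 1.78, 2.23 and 3.35 in KFc against 0.0295, 0.0784 and 0 in TFc, and Wnt16 was lower, at 0.718, 0.603 and 0.576 against 11.4, 12.6 and 12.1. Rspo3, an R-spondin that amplifies Wnt signals, was at 3.06, 2.84 and 3.42 against 42.5, 47.6 and 48, and its receptor Lgr5 at 0.151, 0.426 and 0 against 15.3, 15.7 and 14.2. Secreted inhibitors differed among themselves. Sfrp2 was at 0.113, 0.142 and 0.542 in KFc against 73.5, 90.2 and 85.5 in TFc (log2 fold change -8.22 ± 0.22 (SE), adjusted p = 2.48e-17), Dkk2 at 46, 49.3 and 51.1 against 978, 1014 and 942, and Sfrp1 was higher in KFc, at 506, 566 and 546 against 204, 206 and 207 (log2 fold change 1.39 ± 0.066 (SE), adjusted p = 3.30e-13). Axin2, a common target of the pathway, was at 6.24, 2.41 and 4.1 against 9.37, 8.28 and 9.82 (log2 fold change -1.11 ± 0.25 (SE), adjusted p = 6.74e-04), and without KFc replicate 2 its log2 fold change was -0.83.

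In the BMP and TGF-beta families 13 of 48 genes were called higher in KFc and 13 lower. Tgfb2, a ligand, was at 124, 129 and 114 in KFc against 15.7, 18.9 and 17.9 in TFc (log2 fold change 2.82 ± 0.066 (SE), adjusted p = 3.03e-18), Gdf6 at 50.2, 44.6 and 43.8 against 3.01, 4.04 and 4.12, and Tgfb1 was not called. Bmp7, a survival factor of the nephron lineage, had 7 to 14 counts in KFc libraries and 1 to 5 in TFc libraries and was too low to be tested. On the side of the antagonists, Chrdl1 was at 0.0378, 0 and 0.102 against 11.4, 10.9 and 13. The targets Id1, Id3 and Smad7 were not called, with log2 fold changes from -0.10 (Id1) to 0.04 (Smad7).

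Growth factors of the FGF, PDGF, EGF, HGF and VEGF families gave 16 higher and 15 lower of 51. Vegfa, the main signal for endothelial growth, was at 312, 319.6 and 296 in KFc against 77.5, 71.3 and 73.9 in TFc (log2 fold change 2.06 ± 0.042 (SE), adjusted p = 3.04e-19), and Egfr at 271, 280.4 and 276 against 69.3, 70.0 and 75.6 (log2 fold change 1.95 ± 0.044 (SE), adjusted p = 1.55e-18). Kitl, the ligand of mast cells and melanocytes, was lower in KFc, at 10.3, 12.2 and 9.72 against 186, 188 and 204 (log2 fold change -4.17 ± 0.078 (SE), adjusted p = 9.52e-20), as were Angpt1 (1.48, 1.14 and 0.508 against 45.4, 46.9 and 52.3) and Hgf (6.2, 6.14 and 5.79 against 21.3, 21.2 and 24.3). The insulin-like growth factor list gave 5 higher and 5 lower of 19. Igfbp4, a binding protein that restrains insulin-like growth factors, was lower in KFc, at 322, 312 and 315 against 4515, 4447 and 4356 (log2 fold change -3.81 ± 0.046 (SE), adjusted p = 1.20e-22). Igfbp7 was higher in KFc, at 531, 545 and 529 against 151, 151 and 156. Hedgehog and Notch genes gave 7 higher and 3 lower of 22. The Notch ligand Jag1 was at 159, 162 and 158 in KFc against 16.1, 16.2 and 17.5 in TFc (log2 fold change 3.27 ± 0.049 (SE), adjusted p = 2.99e-21), and the Hedgehog receptors Ptch1 and Gas1 were lower, Gas1 at 9.57, 10.6 and 10.1 against 80.2, 89.4 and 78.6. Among 57 axon guidance genes, 11 were called higher and 17 lower. Epha3, an ephrin receptor, was at 2.34, 2.13 and 2.54 against 108, 111 and 109 (log2 fold change -5.54 ± 0.10 (SE), adjusted p = 2.75e-20), and Slit3 at 639, 644 and 647 against 242, 230.3 and 246.

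Cytokines and chemokines gave 9 higher and 13 lower of 39. Cxcl14 was at 19.4, 18.7 and 19.6 in KFc against 205, 218 and 199 in TFc, Il1rl1, the receptor of interleukin 33, at 9.0, 10.7 and 8.64 against 197, 195 and 194, and Cxcl12, a stromal chemokine, at 30.1, 31 and 32.6 against 176, 178 and 185 (log2 fold change -2.52 ± 0.048 (SE), adjusted p = 1.24e-19). Il6 was higher in KFc, at 7.87, 10.1 and 7.32 against 0, 0.392 and 0.482, and Tnfrsf11b, the decoy receptor osteoprotegerin, at 63, 58.2 and 55.9 against 3.9, 3.1 and 2.81. Il11, a cytokine of fibrosis, was not called (2.76, 3.33 and 3.49 against 2.07, 2.16 and 2.68, adjusted p = 0.155). Interferon-stimulated and MHC genes gave 6 higher and 2 lower of 40, a share of calls close to that of all genes. The complement list gave 7 higher and 6 lower of 18, where C3ar1 and C5ar1, receptors of myeloid cells, were higher with the leukocyte list above.

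Most cell cycle genes were lower in KFc by small amounts. Of 52 S phase and mitosis genes 7 were called lower and 0 higher, and by the adjusted p alone 43 were lower and 3 higher (median -0.66). Over all genes tested 8.70% were called lower, and 27.8% were lower by the adjusted p alone. The summed level of the list differed little, at 2353 to 2379 TMM-CPM in KFc against 2418 to 2465 in TFc. Mki67, the proliferation antigen, was at 81, 82.4 and 84.3 in KFc against 146, 147 and 154 in TFc (log2 fold change -0.85, adjusted p = 4.36e-13), short of the fold limit, and Top2a, the topoisomerase of dividing cells, at 50.4, 51.4 and 47.5 against 92.6, 99 and 104. Genes induced by p53 were more often higher, with 7 of 31 called higher and 1 lower (median 0.49). Cdkn1a, the inhibitor p21, was at 308, 291 and 298 against 127, 130.2 and 134 (log2 fold change 1.2 ± 0.037 (SE), adjusted p = 2.92e-16), Mdm2, the ligase that degrades p53, at 444, 474 and 472 against 191, 192 and 201 (log2 fold change 1.25 ± 0.036 (SE), adjusted p = 7.67e-17), and Gdf15, a stress hormone, at 30.6, 26.5 and 29.6 against 0.561, 1.33 and 1.1. Trp53 itself was not called (0.06).

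Glycolysis and hypoxia genes and sterol genes showed few calls, 2 higher and 4 lower of 36, and 1 higher and 2 lower of 27. YAP and TEAD targets gave 7 higher and 0 lower of 21. Ankrd1 was at 175, 169 and 163 in KFc against 41.2, 37.4 and 38.8 in TFc, and Ccn2, the connective tissue growth factor, at 1308, 1342 and 1268 against 498, 497 and 524 (log2 fold change 1.37 ± 0.031 (SE), adjusted p = 1.56e-18), while Ccn1 was not called (-0.41).

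**Figure D5:**
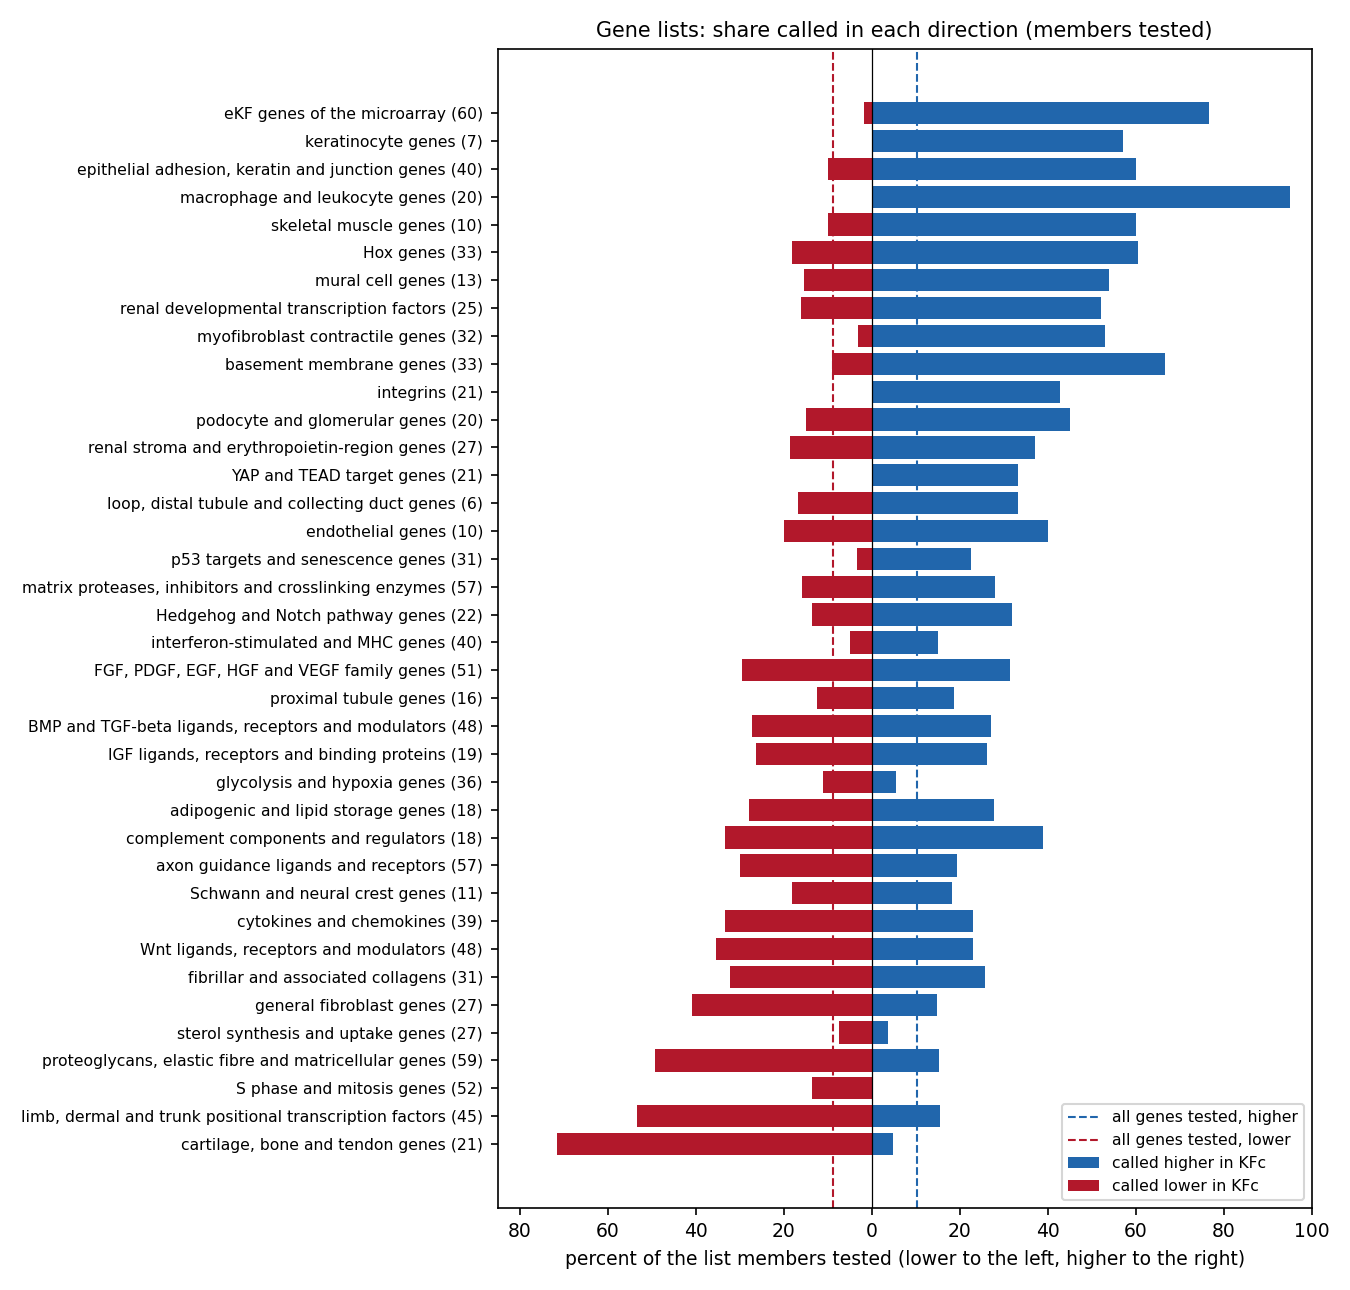
Share of the tested members of each of 38 gene lists called higher in KFc (blue, to the right) or lower in KFc (red, to the left), in percent, lists ordered by median log2 fold change and with the number tested in brackets. Dashed lines mark the shares over all genes tested, 10.4% higher and 8.70% lower.

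Outside these lists, the genes with the largest changes included several known from other tissues. Car3, a carbonic anhydrase of muscle and fat, was at 298, 314 and 333 TMM-CPM in TFc and without counts in KFc (at least 2939-fold higher in TFc, adjusted p = 2.55e-20), and Atp12a, a proton pump, at 32.5, 37.1 and 38.6 in TFc and without counts in KFc (at least 336-fold). Angptl7, a secreted angiopoietin-like protein, was at 0.265, 0.248 and 0.237 against 63, 60.9 and 65.9. On the KFc side, Folh1, a folate hydrolase of the proximal tubule brush border, was at 26.2, 30.1 and 28.8 against 0.266, 0.0784 and 0.0877 (log2 fold change 7.45 ± 0.24 (SE), adjusted p = 7.80e-15), Olr1, a receptor of oxidised lipoprotein, at 38.7, 46.6 and 44.7 against 0.768, 0.353 and 0.219, and Dclk3, a kinase, at 23.9, 20.2 and 19.6 with 2 counts over TFc. Serpinb6b, Serpinb9b and Gvin1 were among the 10 largest rises as well and belong to families of near-identical copies, so their counts are uncertain.

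The cultured heart fibroblasts place these genes against another organ, with the caution that the 3 comparisons share libraries. In HFc Thbs4 was at 0, 0 and 0, where Prg4 was at 4.67, 4.65 and 4.24 and Hoxb13 at 0.0718, 0 and 0. Of the collagen IV chains, Col4a1 was at 6527, 6469 and 6705 in HFc (log2 fold change KFc minus HFc -0.68, HFc minus TFc 3.38). Myh11 was at 15.1, 28.3 and 17.7 in HFc (KFc minus HFc 5.56, HFc minus TFc -0.65), and Des at 1.29, 1.13 and 1.36. Pax8 was at 0, 0 and 0.0487 and Cdh16 had no counts, while Tcf21 was at 127, 131 and 150.4. Ltbp2 was at 41.3, 44.4 and 37. Hoxc8 had no counts in HFc. The summed level of the renal stroma list was higher in HFc than in KFc (1722 to 1836 against 1166 to 1194 TMM-CPM). The same held for the podocyte and glomerular list (2287 to 2345 against 1494 to 1549) and the basement membrane list (24120 to 24650 against 16000 to 16960). Lists with lower sums in HFc than in KFc included the contractile list (22520 to 22650 against 36620 to 37890) and the eKF genes (199 to 212 against 1109 to 1195).

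Transplanted cells, profiled in other libraries, were compared as KFs with TFs, and 1306 of 15734 genes (8.30%) were called there, 572 higher in KFs (3.64%) and 734 lower (4.67%). Per the study's methods, the cultured controls were replated from cells not used for transplantation, so by that account both sets came from the same cultures. Whether this held for KFs replicate 3, described below, is not known. Of the 2938 genes called in culture 2690 were tested after transplantation, 2294 (85.3%) had the same sign, 758 (28.2%) were called in the same direction and 18 (0.669%) in the opposite direction. The share with the same sign over all genes tested was not computed. The library labelled KFs replicate 3 stood apart. Xist, the X inactivation transcript of female cells, was at 1716 plain CPM in it and at most 0.396 in each other library of the series, and it correlated with KFs replicates 1 and 2 at 0.932 and 0.932, which correlated with each other at 0.981. Without it the same sign was seen for 2253 of 2755 genes (81.8%) and the same call for 970 (35.2%), where 11.2% of genes tested were called. Of the Hox genes called in culture, 26 of 26 had the same sign and 19 were called the same way. For the contractile list the counts were 14 and 10 of 18, and for the basement membrane list 22 and 8 of 25. Hoxb13 and Thbs4 were called lower in KFs as well (adjusted p = 3.34e-04 and 6.02e-04), and Acta2 was called higher (log2 fold change 2.39, adjusted p = 0.0121). Col4a1 was not called between KFs and TFs (log2 fold change 0.62, adjusted p = 0.0796), while Pax8 was called higher in KFs (log2 fold change 4.96, adjusted p = 0.0414). Without KFs replicate 3 the log2 fold change of Pax8 was 1.96 (adjusted p = 0.0446) and that of Col4a1 0.78 (adjusted p = 0.0107), and the calls of Hoxb13, Thbs4 and Acta2 held.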

How the data were processed

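Ribosome-depleted total RNA was made into stranded libraries (SMARTer Stranded Total RNA-Seq Pico v2) and sequenced single-end. The authors aligned reads with Bowtie2 and estimated counts with RSEM on GRCm38, per the study's methods, while the submitters' notes list mm9, so no gene coordinates are taken from the table. The deposited values are expected counts per Ensembl gene, given as whole numbers and not normalised, with 38924 genes, of which 17018 had no count in the 6 libraries. Samples were grouped by their titles.

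From these counts, edgeR 4.0.16 (limma 3.58.1, R 4.3.3) was run on the 9 cultured libraries, heart included, so that the 3 groups share 1 estimate of spread. Genes passed filterByExpr by group (minimum count 10), libraries were normalised by TMM, and a quasi-likelihood test was applied to KFc minus TFc, p-values being adjusted by Benjamini and Hochberg across the tested genes. A standard error is the log2 fold change over the root of its F statistic. KFs minus TFs was fitted on the transplanted libraries alone. Intervals of ratios are exact Poisson intervals at the 95% level and, like the floor of 3 counts, cover counting error only. The script was tested on simulated counts.

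The members and the 38 gene lists were chosen with earlier results of these data known. Named genes were the 10 largest rises and falls among protein-coding called genes without overlap at a mean of 20 CPM or more, the 5 with the most counts in each direction, extremes and defining members of the lists, and genes the paper names. Of the largest falls, 1 is not reported here. Other list members were chosen for their roles after their values were seen. Gene positions and promoters came from GENCODE M21 and RefSeq tables of GRCm38.p6, matched by gene ID or symbol, with 225 tested IDs without an annotation entry. Promoter windows were found for 11184 genes tested. Alternatives were DESeq2 1.42.0, other scalings, filters, thresholds and sample sets, a replicate block, and each replicate left out. HFs were not compared here. Leaving out replicates of KFs and TFs was chosen after seeing the data. Whether the cultured control cells were sorted before lysis is not stated outright in the sources used here.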

Additional observations from a re-analysis of the deposited data

Results flagged for a closer look

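The difference between kidney and tail fibroblasts was itself compared between transplanted and cultured cells, as an interaction term in an edgeR quasi-likelihood fit of all 18 libraries. Over 16577 genes, 1835 had an adjusted p below 0.05, and 3620 without KFs replicate 3. Among the 49 named genes in that fit, 13 differed, and 27 without KFs replicate 3. Many named genes were chosen for a large difference in culture, which the shift subtracts. That choice favours shifts toward a smaller difference, so these counts cannot be set against the share over all genes. The kidney-to-tail difference was shifted downward after transplantation for Dclk3 (log2 shift -6.36), Serpinb6b (-4.43), Hoxd10 (-3.35), Col4a1 (-2.05), Olr1 (-1.95), Hoxc13 (-1.22) and Timp3 (-1.05). It was shifted upward for Sfrp2 (4.84), Prg4 (3.97), Crabp1 (3.93), Zic1 (2.91), Spp1 (2.79) and Fn1 (0.898). For Spp1, lower in KFc (log2 fold change -1.69 in this fit), the difference between KFs and TFs was not called in their own fit (log2 fold change 1.09, adjusted p = 0.202, and 0.27, adjusted p = 0.611, without KFs replicate 3), while its shift without that library was 1.93 (adjusted p = 0.00133). For Col4a1 the shift was -1.93 without that library (adjusted p = 3.33e-07), and for Dclk3 -8.86 (adjusted p = 1.24e-06). The 14 named genes that differed only without KFs replicate 3 had shifts of -9.90 for Pax8, -8.62 for Pkhd1, -7.89 for Col4a3, -7.58 for Krt18, -6.60 for Krt8, -6.28 for Wnt7b, -6.27 for Gvin1, -5.19 for Epcam, -4.44 for Hoxd3, -2.36 for Krt7, -2.34 for Clu, -1.17 for Itga3, 0.578 for Sparc and 3.80 for Thbs4 in that fit. With all libraries these were -6.85 for Pax8, -5.33 for Pkhd1 and -4.06 for Col4a3, and positive for Itga3 (1.52) and Clu (0.150). Shifts of genes at or near 0 counts in one group depend on the prior count and are no bounds.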

How the results depend on the processing

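With no fold-change limit, 8690 genes differed between KFc and TFc, 4430 higher and 4260 lower, and 6531 had the same sign between KFs and TFs. With glmTreat, which tests against a log2 fold change of 1, 1863 genes were called, 751 of them lower. Across the other settings, which were DESeq2, RLE factors, library size alone, no filter on low counts, a mean of at least 10 counts, the 6 libraries alone, all 18 libraries with and without the third KFs library, an adjusted p of 0.01 and the replicate block, between 2642 and 3220 genes were called. Leaving out each of the 6 libraries in turn gave 2883 to 2931 calls (1570 to 1621 higher, 1284 to 1334 lower). Hox calls ranged from 24 to 32 and renal transcription factor calls from 14 to 21 over these settings. Genes with the same sign after transplantation numbered 2253 to 2373 with 1 transplanted library left out. Same-numbered KFc and TFc libraries did not deviate together (correlation of deviations -0.0430 to -0.0264, against 0.00302 to 0.0259 for other pairs), and none of the 6 libraries correlated best with its own number. Deviations within a group cancel out, so this check cannot show whether same-numbered libraries came from the same animal. The replicate block gave 2892 calls, 2860 of them shared with the 2938, and 2296 genes with the same sign after transplantation. Over 562 genes checked one by one, 9720 comparisons with an alternative kept the call, 345 lost it, 21 gained it and 0 reversed. Calls lost in the fit of all 18 libraries were those of Ptprc (adjusted p = 0.0529), Clu (0.0526), Itga3 (0.104) and, among others, Scx, Sfrp1 and Axin2. Calls of Foxd1 (adjusted p = 0.0752), Csrp2, Col6a3 and Axin2 were lost with glmTreat. Rgs5, with a log2 fold change of 0.99, was called under 5 alternatives besides the one without a fold limit. The causes were not tested. Genes that did not pass filterByExpr (minimum count 10), most markers of mature nephron segments among them, were not tested between KFc and TFc.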
